A study of Rattus norvegicus and Sus scrofa and Bos taurus with 188 samples.

Results

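The 10 genes described here encode the main enzymes that add methyl groups to lysine 36 of histone H3 (H3K36) and those that remove them. They were chosen by gene name: the 5 methyltransferase genes NSD1, NSD2, NSD3, SETD2 and ASH1L, and the 5 demethylase genes KDM2A, KDM2B, KDM4A, KDM4B and KDM4C. All 10 were found, with 41 transcript rows among the 37571 rows and 15877 gene names of the table. The series covers DNA methylation, histone marks and RNA of gametes and early embryos in several mammals, and the values come from 1 of its groups, the RNA of pig morulae whose titles carry the mark PG. Labels of sister samples use that mark for embryos from parthenogenetically activated eggs, which develop without sperm and so carry maternal chromosomes only. The group has 4 Smart-seq2 libraries, made from polyadenylated RNA of very small samples. How many embryos each held, and whether they were separate embryos, is not stated in the labels. The labels give these morulae no further treatment. RNA of pig oocytes and of PG embryos at other stages also belongs to the series and was not analysed here.

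The authors merged the 4 libraries into 1 column of FPKM values, which are fragment numbers divided by transcript length and by the size of the library. No value below therefore has a spread between replicates, an n or a test, and the depth is unknown. Comparisons set genes of the same embryos against each other, on a scale per transcript length. In RNA of whole embryos, fewer cells that use a gene and less RNA per cell cannot be told apart. Marker genes give a weak check of the label, since the lists were drawn up with earlier results of these data known. All 7 markers listed for the early embryo stood above 1 FPKM, where 50.6% of all genes reached that level. They ran from 5.36 FPKM for SOX2 to 194 FPKM for TFAP2C. Of the 8 measured markers of cumulus and granulosa cells, which surround the egg, 1 reached 1 FPKM (CYP19A1, 1.06 FPKM), FSHR and TNFAIP6 were listed at 0, and the 8 summed to 1.61 FPKM.

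Methylation of H3K36 is laid down on the bodies of transcribed genes and over broader regions between them. The NSD enzymes and ASH1L place up to 2 methyl groups on the residue, while SETD2 travels with elongating RNA polymerase II and places the third. The mark is read by proteins with PWWP, chromo or Tudor domains, among them the de novo DNA methyltransferases. In growing mouse oocytes it guides where DNA becomes methylated, and it limits the spread of H3K27 methylation. Among the erasers, KDM2A and KDM2B act on the lower methylation states and bind unmethylated CpG islands through a CXXC domain. KDM4A, KDM4B and KDM4C act on the di- and trimethylated states of both H3K36 and H3K9.

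With transcript rows summed per gene, 8 of the 10 enzymes reached 1 FPKM, against 50.6% of all genes in the table and 59.1% of the 8819 genes that, like all members, have 2 or more rows. NSD1 (10.1 FPKM) and NSD3 (9.55 FPKM) had the highest sums of the 10. They were followed by SETD2 at 5.48 FPKM, KDM2B at 5.33 FPKM, KDM4C at 3.90 FPKM, ASH1L at 3.22 FPKM, KDM4A at 2.70 FPKM and KDM2A at 1.71 FPKM. NSD2 (0.853 FPKM) and KDM4B (0.174 FPKM) were the members below 1 FPKM. By the highest row of each gene the count was also 8, against 48.8% of all genes. At 5 FPKM it was 4 (NSD1, NSD3, SETD2 and KDM2B), against 31.1%. At 0.5 FPKM it was 9 (57.9% of all genes), as it was at 1 TPM (62.5%), where the table is rescaled to a total of 1000000, since NSD2 then passed and KDM4B did not. The sums spanned 58.2-fold from KDM4B to NSD1. The step from NSD2 down to KDM4B was 4.90-fold and that from KDM2A to NSD2 was 2.00-fold, while the other steps between neighbours in the order were between 1.03-fold and 1.74-fold. With no replicate values, it cannot be said which of these neighbours differ beyond error.

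**Figure D1:**
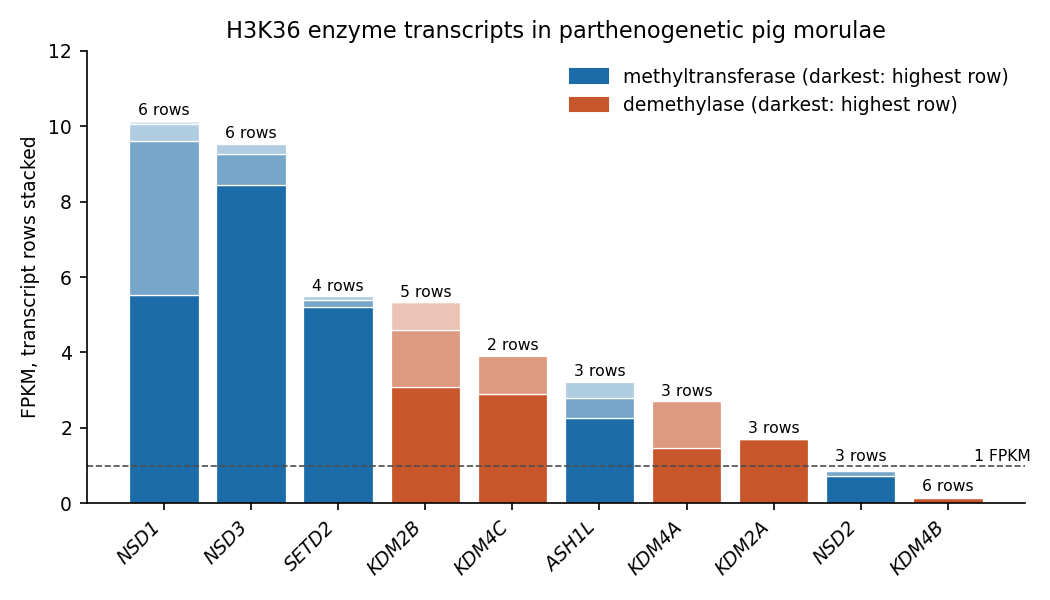
FPKM (vertical axis, linear) of the 10 genes in order of their sums, with the transcript rows of each gene stacked from the highest (darkest) upward; blue bars are methyltransferases, orange bars demethylases, and the dashed line marks 1 FPKM. NSD1 and NSD3 reach 10.1 and 9.55 FPKM, the first split over a pair of large rows and the second made mostly of 1 row, while NSD2 and KDM4B stay below the line.

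The 10 enzymes stood at or below the 77.5 percentile of all genes by summed FPKM. Together they took 0.0141% of the FPKM total of the table. Only NSD1 and NSD3 lay above 7.95 FPKM, the median of the genes at 1 FPKM or more, and 8 of the 10 lay above 1.06 FPKM, the median of all genes. Ranked by summed FPKM among 15877 genes, NSD1 stood at place 3568 (77.5 percentile) and NSD3 at place 3690 (76.8 percentile). SETD2 (place 4757) and KDM2B (place 4813) were near the 70.0 and 69.7 percentile, KDM4C, ASH1L and KDM4A at 65.6, 63.2 and 60.8, and KDM2A at 55.4. NSD2 was at place 8329 (47.5 percentile) and KDM4B at place 10750 (32.3 percentile), so most gene names had a higher sum than either. Genes with several annotated transcripts ranked higher in general: among the 8819 genes with 2 or more rows NSD1 was at the 74.2 percentile, SETD2 at 64.8, NSD2 at 38.8 and KDM4B at 22.8.

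**Figure D2:**
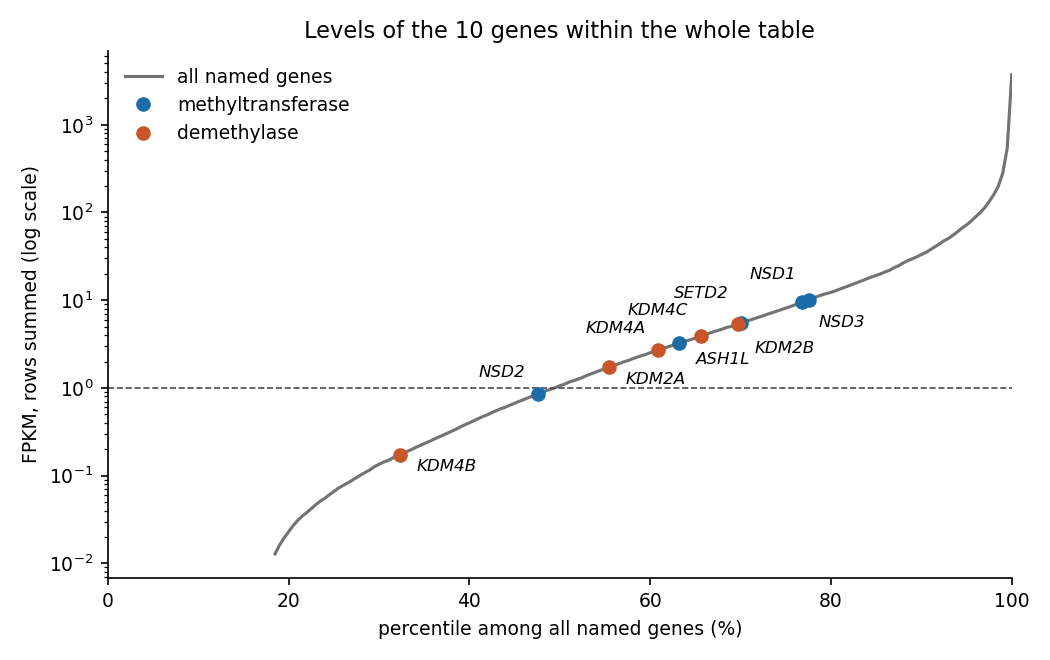
Summed FPKM (vertical axis, log scale) against percentile (horizontal axis) for all 15877 named genes (grey line, drawn from 0.01 FPKM up) and the 10 members (blue points methyltransferases, orange points demethylases), with 1 FPKM dashed. The members run from KDM4B at the 32.3 percentile to NSD1 at the 77.5 percentile, and none lies on the steep upper end of the curve.

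The NSD family, the main source of H3K36 dimethylation outside genes, was unevenly represented. NSD1 and NSD3 were within 1.06-fold of each other, and stood 11.9-fold and 11.2-fold above NSD2. By highest rows these ratios were 7.70 for NSD1 and 11.8 for NSD3. The NSD1 signal was split over several of its 6 rows. The leading row, ENSSSCT00000015341.3, stood at 5.52 FPKM and ENSSSCT00000053942.1 at 4.09 FPKM, which are 54.4% and 40.3% of the sum. The remaining NSD1 rows stood at 0.448, 0.0887, 0.000763 and 7.61e-21 FPKM. A pair of transcript models thus carried nearly all of the NSD1 value, in a ratio of 1.35.

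NSD3, in contrast, had 88.4% of its sum on 1 of its 6 rows, ENSSSCT00000051362.1 at 8.44 FPKM. The other NSD3 rows stood at 0.832, 0.252, 0.0261, 0.000103 and 1.18e-34 FPKM. Judged by the leading row alone NSD3 was the higher of both, with NSD1 at 0.654 times its level, whereas by sums NSD1 was 1.06 times NSD3. The order of these 2 genes therefore turns with the way a gene's value is taken. The place of NSD2 did not. NSD2, also known as MMSET or WHSC1, had its highest row, ENSSSCT00000009499.3, at 0.717 FPKM, 84.0% of its sum, and its other rows at 0.134 and 0.00335 FPKM.

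SETD2, the enzyme of H3K36 trimethylation, stood at 5.48 FPKM, of which 95.1% lay on 1 row. That row was ENSSSCT00000051013.1 at 5.21 FPKM, 32.0-fold above the next SETD2 row. The other 3 rows stood at 0.163, 0.107 and 3.03e-32 FPKM. ASH1L, a Trithorax group protein that writes dimethylation, was spread more evenly over its 3 rows. Its leading row, ENSSSCT00000027588.2, stood at 2.26 FPKM (70.4% of 3.22 FPKM) and the other rows at 0.519 and 0.435 FPKM. By total transcript, the 4 genes that write up to the dimethylated state (NSD1, NSD2, NSD3 and ASH1L) summed to 23.8 FPKM, which is 81.2% of the methyltransferase total and 4.33-fold the SETD2 sum. With leading rows alone that ratio was 3.25. Both ratios set 4 genes against 1, and per gene the levels were closer: the median of the 4 was 6.38 FPKM, against 5.48 FPKM for SETD2.

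The KDM2 genes, which encode CXXC demethylases, differed in level and in row structure. KDM2B, also a subunit of a variant Polycomb repressive complex 1, stood at 5.33 FPKM over 5 rows. Of these, ENSSSCT00000029722.2 held 3.09 FPKM (58.0% of the sum), ENSSSCT00000010755.3 1.51 FPKM (28.4%) and ENSSSCT00000025160.2 0.723 FPKM (13.6%), and the remaining KDM2B rows were at 8.11e-05 and 1.65e-11 FPKM. By the effective number of rows, the inverse of the summed squares of the row shares, KDM2B was the most divided of the 10 (2.29), followed by NSD1 (2.17) and KDM4A (1.99). KDM2A stood at 1.71 FPKM on ENSSSCT00000022488.2, with its other 2 rows at 2.39e-07 and 1.35e-07 FPKM, so that in effect its whole value lay on 1 row. KDM2B exceeded KDM2A 3.12-fold by sums and 1.81-fold by leading rows.

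Among the KDM4 members, which erase H3K36 and H3K9 methylation, KDM4C and KDM4A were present and KDM4B was low. KDM4C stood at 3.90 FPKM, with ENSSSCT00000005730.3 at 2.91 FPKM (74.4%) and ENSSSCT00000056156.1 at 0.998 FPKM (25.6%). KDM4A stood at 2.70 FPKM and was divided almost equally, with ENSSSCT00000031638.2 at 1.46 FPKM (54.1%), ENSSSCT00000026209.2 at 1.24 FPKM (45.9%) and a further row at 2.84e-14 FPKM. KDM4A lay above KDM2A by its sum but below it by its leading row. KDM4B, although it has 6 rows, reached 0.174 FPKM in all: ENSSSCT00000026522.2 stood at 0.138 FPKM (78.9%), a second row at 0.0367 FPKM, and the other 4 rows between 4.13e-08 and 1.18e-06 FPKM. KDM4C exceeded KDM4B 22.4-fold and KDM4A exceeded it 15.5-fold. The KDM4 genes summed to 6.78 FPKM and the KDM2 genes to 7.04 FPKM, nearly equal parts (49.1% and 50.9%) of the demethylase total.

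Over all 41 member rows, 11 stood at 1 FPKM or more (26.8%, against 30.3% of all rows in the table). Another 15 lay from 0.01 to 1 FPKM and 15 below 0.01 FPKM (36.6%, against 39.2% of all rows). At 1 TPM or more there were 18 of 41 member rows, against 41.5% of all rows. No member row was exactly 0, but 9 were under 1e-06 FPKM. Of the 37571 rows of the table, 6494 were at 0 and 4534 lay above 0 and under 1e-06 FPKM. NSD1, KDM2B and KDM4A, 3 of the 10 members, had 2 rows at 1 FPKM or more, against 29.2% of the genes with 2 or more rows. Leading rows took from 54.1% (KDM4A) to all but a trace (KDM2A) of a gene's sum, with a median of 76.7%. Over the 5212 genes with 2 or more rows and a sum of at least 1 FPKM the median was 80.4%, with quartiles at 60.8% and 96.6%. Of the members, SETD2 and KDM2A (2 of 10) had 90% or more on the leading row, against 36.6% of those genes. The 10 members include NSD2 and KDM4B, whose sums below 1 FPKM lie outside that comparison set.

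Because a gene with more rows has more ways to divide its signal, each member was also set beside the genes at 1 FPKM or more with the same number of rows. NSD3 (88.4%, against a median of 59.8% over 240 genes with 6 rows), SETD2 (95.1% against 70.7%, 4 rows) and KDM2A (against 79.6%, 3 rows) lay above the upper quartile of their classes. KDM4B also did (78.9% against 60.0%), though on a sum below 1 FPKM. KDM4A (54.1% against 79.7%) and KDM4C (74.4% against 93.2%, 2 rows) lay below the lower quartile. NSD1, NSD2, ASH1L and KDM2B lay between the quartiles, NSD2 likewise on a sum below 1 FPKM. Of the 10 members, 5 lay above the median of their class, NSD2 and KDM4B among them. Methyltransferases and demethylases were found on both sides of that median, while the genes below the lower quartile were demethylases only.

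**Figure D3:**
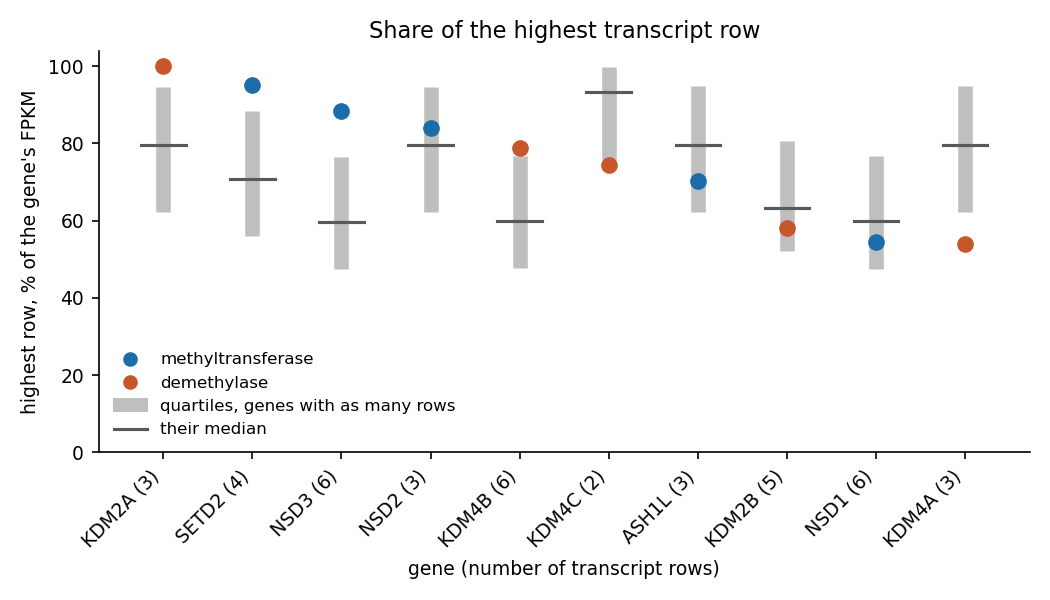
Share of the gene's summed FPKM on its highest row (vertical axis, %), for the 10 genes in descending order (blue points methyltransferases, orange points demethylases), with the number of rows in brackets; grey bars span the quartiles and dark lines give the median of genes at 1 FPKM or more with as many rows. KDM2A, SETD2, NSD3 and KDM4B lie above the grey bars, KDM4C and KDM4A below them.

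Transcript models carry a version number that counts their revisions in the annotation. Of the 41 member rows, 20 carried version 1, 12 version 2 and 9 version 3, with 20.4, 11.2 and 11.5 FPKM in all. Versions over all rows are not given here, so these counts cannot be read as particular to the members. The leading rows of NSD3 and SETD2 were version 1 models, while the version 3 models of these genes stood at 0.252 and 0.163 FPKM. For NSD1, NSD2 and KDM4C a version 3 model led. The other 5 genes were led by a version 2 model.

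Among these 10 genes, methyltransferase transcripts outweighed demethylase transcripts in total, by 29.2 to 13.8 FPKM, a ratio of 2.12 (2.38 with leading rows). With the other listed H3K36 enzymes described further on added, methyltransferases came to 40.3 FPKM. Demethylases then came to 18.9 FPKM without RIOX2 and to 53.0 FPKM with it. The order of the totals thus turned only with RIOX2, a gene whose activity on H3K36 is uncertain. The median methyltransferase stood at 5.48 FPKM (SETD2) and the median demethylase at 2.70 FPKM (KDM4A). On the scale of log2(FPKM + 1) the medians were 2.70 and 1.89, a difference of 0.81. Taken as pairs, the methyltransferase was the higher gene in 19 of 25 pairs, by sums and by leading rows alike. The ranges overlapped widely, since NSD2 lay below 4 of the 5 demethylases and KDM2B lay above both ASH1L and NSD2. These are 10 genes of 1 merged column, so the difference is a description of these embryos' RNA and was not tested. When each member was left out in turn, the difference ran from 0.50 (without NSD1 or without NSD3) to 1.16 (without NSD2 or without ASH1L).

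Enzymes of H3K4 and H3K9 methylation were set beside them, on lists drawn up after the values were known. For H3K4, the median of the 3 measured methyltransferases (SETD1A, SETD1B and KMT2C) was 2.36 FPKM and that of 5 demethylases 9.56 FPKM, the opposite order to H3K36. KMT2D, KMT2B and KMT2A, further enzymes of this kind, were not analysed here. For H3K9, the median of 6 methyltransferases was 1.41 FPKM (1.44 FPKM over the 5 outside the stretch of zeros that ends the table, where EHMT1 lies) and that of 5 demethylases other than KDM4 genes was 1.99 FPKM. The lists are unlike, since the KDM4 genes were counted for H3K36 only. On these lists, H3K36 with its 10 genes was the only one of the 3 residues whose methyltransferase median lay above its demethylase median. This held by sums and also by leading rows (5.21 against 1.71 FPKM). With so few genes per list and no replicates, that contrast was not tested.

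Other enzymes listed for H3K36 activity, some with better known targets elsewhere and some with uncertain activity on H3K36, also passed 1 FPKM where measured. Of 5 further methyltransferases 3 were measured and all 3 reached 1 FPKM, as did 50.6% of all genes. They were SETD3, best known as an actin histidine methyltransferase, at 5.85 FPKM, SETD5 at 3.27 FPKM over 10 rows, and SMYD2 at 1.91 FPKM. SETMAR and the meiotic gene PRDM9 were not analysed here. Of 5 further demethylases 3 were measured, and all 3 reached 1 FPKM, against the same 50.6% of all genes. The ribosomal oxygenase gene RIOX2, whose activity on H3K36 is uncertain, stood at 34.1 FPKM, 3.37-fold above NSD1. RIOX1 stood at 3.80 FPKM and KDM8 at 1.29 FPKM. The KDM4 paralogues KDM4D and KDM4E, whose activity on H3K36 is less certain than that of the KDM4 members, were not analysed here.

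Proteins that bind methylated H3K36, a longer list, covered a wider range than the 10 enzymes. Of 15 measured readers 11 (73.3%, against 50.6% of all genes) stood at 1 FPKM or more, with a median of 2.87 FPKM. MORF4L1, a chromodomain protein that also partners ASH1L, stood at 95.6 FPKM, the PWWP protein gene PSIP1 at 42.8 FPKM and the mismatch repair gene MSH6 at 25.8 FPKM. HDGF (0.963 FPKM), DNMT3B (0.748 FPKM) and the Polycomb accessory gene PHF1 (0.214 FPKM) were the highest below 1 FPKM, and PWWP2B, named with its value known, was listed at 0. Among the de novo DNA methyltransferases, which bind H3K36 methylation through their PWWP domain, DNMT3A, named in the same way, was at 9.04 FPKM, close to NSD3 and NSD1.

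Elongation partners of SETD2 were all well above SETD2 itself. The 5 measured genes, all past 1 FPKM as were 50.6% of all genes, ran from 12.7 FPKM (SUPT6H) to 35.9 FPKM (IWS1), with a median of 30.5 FPKM (89.3 percentile). IWS1, which links SETD2 to the polymerase through the histone chaperone SUPT6H, was followed by PAF1, a subunit of the elongation complex of that name, at 31.6 FPKM and by SUPT16H of the FACT chaperone at 30.5 FPKM. HNRNPL and POLR2A were not analysed here. SETD2, at 5.48 FPKM, thus lay below the lowest of the 5.

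Subunits that join KDM2B in the variant Polycomb complex were divided. Of 7 measured genes 5 (71.4%, against 50.6% of all genes) stood at 1 FPKM or more, with a median of 19.7 FPKM. SKP1, an adaptor shared with many ubiquitin ligases, stood at 542 FPKM, the ubiquitin ligase gene RNF2 at 98.6 FPKM and the deubiquitinase gene USP7 at 42.4 FPKM. RING1, the paralogue of RNF2, stood at 0.582 FPKM and BCORL1 at 0.214 FPKM. BCOR, the corepressor of this complex and also named with its value known, was at 2.49 FPKM, below KDM2B. PCGF1 was not analysed here.

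**Figure D4:**
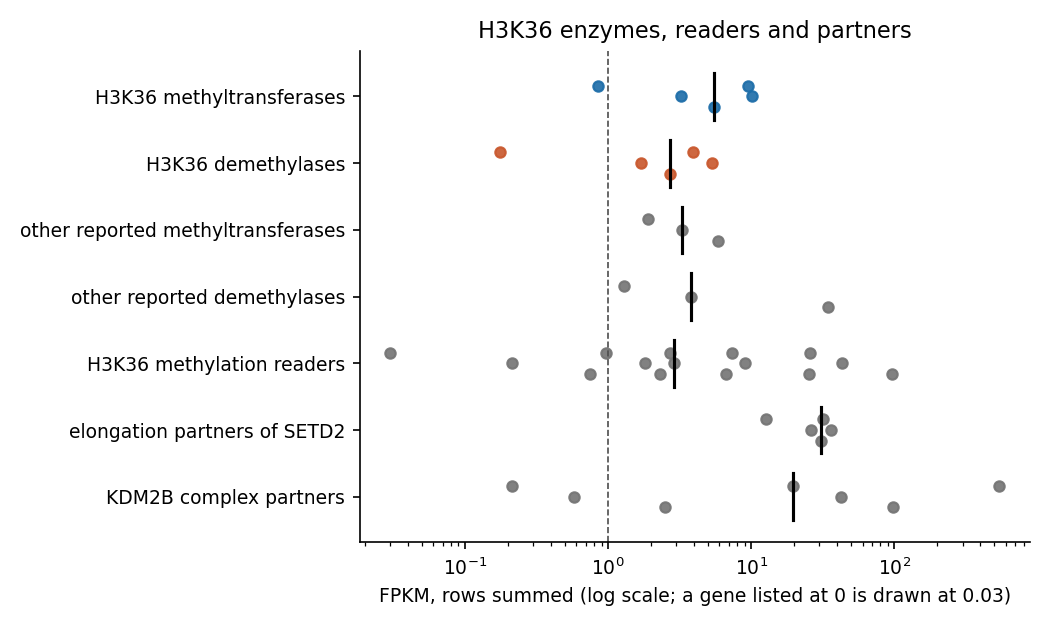
Summed FPKM (horizontal axis, log scale) of each measured gene in the H3K36 lists, with 1 point per gene, black lines at the list medians and 1 FPKM dashed; blue points are the methyltransferases and orange points the demethylases described above, and the 1 gene listed at 0, PWWP2B, is drawn at the left edge. The elongation partners of SETD2 (median 30.5 FPKM) lie to the right of all 10 enzymes, and the readers spread from 0 to 95.6 FPKM.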

How the data were processed

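RNA of 4 pig morula libraries was measured with Smart-seq2, per the labels' protocols. The authors deposited 1 table of FPKM values per Ensembl transcript with a gene name, per the file headers, in which the 4 libraries are merged. Whether reads or values were merged, and which aligner, quantifier and annotation made the table, is not stated by any source read here. Per the submitters' processing notes, tools of the series include TopHat2 2.1.1 and Cufflinks 2.2.1, and susScr11 is among its builds, none with a role.

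Of the rows, 4534 lay above 0 and under 1e-06 FPKM, so no whole reads could be recovered and no interval or detection limit is given. The division of a gene's value among its rows is an estimate. A stretch of 474 rows at 0 ends the table and holds no member. No transcript lengths were used.

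With pandas 2.3.3 under Python 3.11.15, rows were summed per gene name, which set the rank, the percentile (ties at their midpoint) and the call at 1 FPKM. All 10 members are named with their rows. From each further list fixed with the design, the 3 highest genes at 1 FPKM or more and up to 3 below it are named. Members and lists were chosen with earlier results of these data known. The sums, ranks and shares were tested on simulated data. Alternatives were the highest row, other thresholds, TPM, a pseudocount of 0.1 and other sets of ranked genes.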

Additional observations from a re-analysis of the deposited data

How the results depend on the processing

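The count of 8 members at 1 FPKM or more was the same with the highest row in place of the sum and without rows under 0.01 FPKM, was 9 at 0.5 FPKM (57.9% of all genes) and after scaling to TPM (62.5%), where NSD2 joined, and was 4 at 5 FPKM (31.1%). The difference of 0.81 between the methyltransferase and demethylase medians kept its sign, at 1.20 with highest rows, 0.99 with a pseudocount of 0.1, 0.94 on the TPM scale, 0.80 with means, and 0.50 to 1.16 when each member was left out. The median percentile of the members, 64.4, became 62.9 with highest rows, 50.7 among genes at 0.1 FPKM or more, 57.0 without genes listed at 0, 58.1 among genes with 2 or more rows and, in an alternative chosen after seeing the data, 63.9 without the genes of the final stretch of zeros. Member rows at threshold numbered 11 in FPKM and, also chosen after seeing the data, 18 in TPM (30.3% and 41.5% of all rows). The further lists had 27 of 33 measured genes at 1 FPKM or more (50.6% of all genes), 27 with highest rows (48.8%) and 18 at 5 FPKM (31.1%). Leaving out libraries was not run, since the 4 share 1 column. No paired analysis was possible because the table has 1 group and no column per library.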
